A study of Mus musculus with 4 samples.

Results

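The liver of wild-type (WT) mice was compared at 3 weeks and at 6 weeks of age, gene by gene. Members were the genes with a probe well above background on both WT arrays in spots without an outlier flag, which left 19341 of the 30139 genes on the array. The dimmest members had a signal of 0.0151 at 3 weeks and 0.0121 at 6 weeks. Signal here is the processed intensity over the 75th percentile of the non-control spots on the same array, so that a signal of 1 is that percentile, and each change is the log2 ratio of 6 weeks over 3 weeks.

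The study measured RNA from the livers of C57BL/6N mice, WT or labelled as Pnpla7 knockout (KO), at 3 and 6 weeks, the series being about PNPLA7, an enzyme of phospholipid breakdown, and hepatic methionine metabolism. Each of the 4 groups was 1 pool of equal amounts of RNA from 5 livers on 1 one-colour Agilent array, and all 4 arrays lay on 1 slide. The labels used here give no sex, feeding state or time of day, so any such difference between pools cannot be told apart from age. With 1 array a group there is no test of a WT change, and genes are described by the size of their ratio, with the pair of arrays labelled KO beside it as RNA from other animals. In pooled whole tissue, fewer cells of a type and less RNA per cell cannot be told apart.

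Around 3 weeks of age mice are weaned from milk, which is rich in fat and cholesterol, onto chow. The postnatal liver leaves the cell cycle, stops making blood cells, shuts down fetal genes such as alpha-fetoprotein, and takes up the enzyme repertoire of the adult organ. Growth hormone, insulin, bile acids and glucocorticoids are known to take part in that maturation, and the secretion pattern of growth hormone comes to set the sex differences of the adult mouse liver.

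Hepatocyte markers matched the label. All 19 of those on the array were members and none of them lay 2-fold apart, with a median log2 ratio of 0.06 and extremes of -0.72 (Tat, tyrosine aminotransferase) and 0.31 (Asgr2, a chain of the asialoglycoprotein receptor). Pnpla7 had a signal of 7.54 at 3 weeks and 9.65 at 6 weeks in WT and of 6.70 and 4.42 on the arrays labelled KO. The probe therefore read clear signal on the arrays labelled KO at both ages, and the labels do not say whether it lies in the deleted part of the gene. Between 28714 and 30697 of the 43020 non-control spots on each array were well above background, and none was saturated. Spots of the same probe gave a WT log2 ratio an SD of 0.0952, which leaves out any difference between pools or animals, and the scanner software's own error model gave a median SE of 0.204.

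Across all members the signal at 6 weeks was at least 2-fold higher in 452 genes (2.34%), and it was at least 2-fold lower in 721 (3.73%). Of the genes past 2-fold, 61.5% were therefore lower. At 4-fold the counts were 88 and 169. Most of the liver's messages moved little: 85.1% of members lay within 1.5-fold, and the median log2 ratio was 0.0027. The 8495 members that reached the 75th percentile on at least 1 WT array held 157 of the higher and 163 of the lower genes, which is 3.77% of them. The 10846 dimmer members held 295 and 558, which is 7.87%. Of 177 genes past 2-fold whose next brightest probe was also a member, 155 had the same sign on that probe and 102 were past 2-fold on it too.

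**Figure D1:**
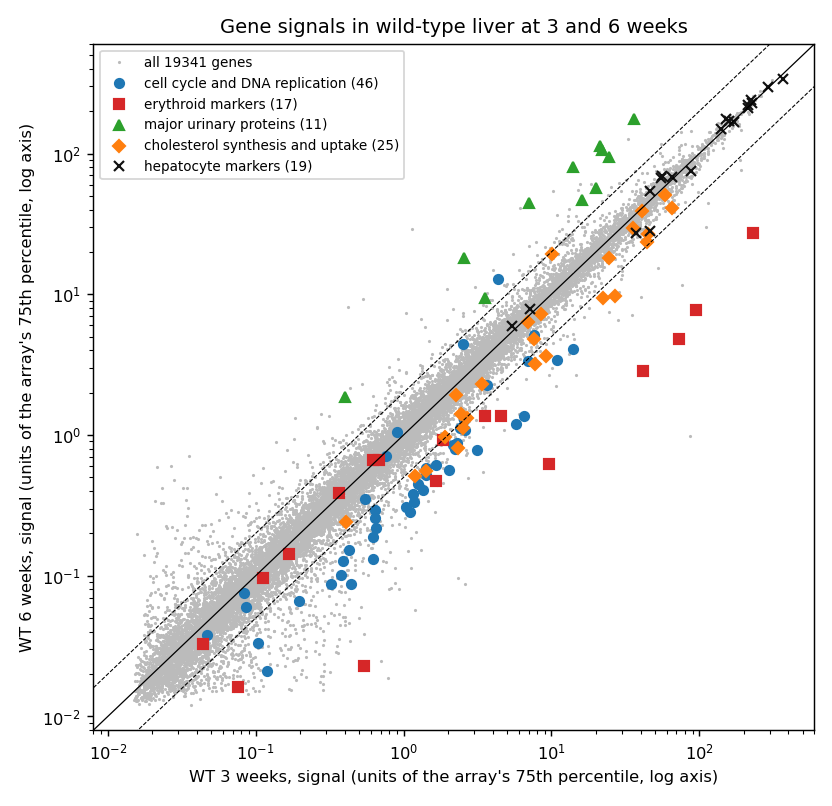
Signal of each of the 19341 genes at 6 weeks (vertical, log axis) against 3 weeks (horizontal, log axis) in WT liver, 1 array per age, with the line of equality (solid) and 2-fold limits (dashed). Most of the cell cycle genes (circles) and, apart from Hbb-y, the hemoglobins among the erythroid markers (squares) lie below the lower limit, the 11 major urinary proteins (triangles) above the upper one, and the hepatocyte markers (crosses) between them.

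Genes of the cell cycle and of DNA replication were the largest group to stand lower at 6 weeks. Of 46 members, 35 were at least 2-fold lower and 1 at least 2-fold higher, and the median log2 ratio was -1.48, beside 0.0027 over all genes. Bub1, a kinase of the spindle checkpoint, had a signal of 0.119 at 3 weeks and 0.0210 at 6 weeks, a log2 ratio of -2.50. Top2a, the topoisomerase that untangles replicated chromosomes, went from 0.440 to 0.0879 (log2 ratio -2.32). Rrm2, the regulated subunit of ribonucleotide reductase, which supplies deoxynucleotides for DNA synthesis, went from 6.49 to 1.36 (log2 ratio -2.26). These 3 genes had the lowest ratios of the list, and for that reason the 150 bases before the start of each are shown. Sequence elements known from cell cycle promoters are marked where they occur. The sequences are from RefSeq, build GRCm38.p6, 5′ to 3′ along the gene, with capitals for the CCAAT box, for TTTGAA or TTCGAA of the cell cycle homology region and for E2F sites (TTTGGCGC or TTTCGCGC), each on either strand.
Bub1, chr2.0:127831860-127832009, minus strand: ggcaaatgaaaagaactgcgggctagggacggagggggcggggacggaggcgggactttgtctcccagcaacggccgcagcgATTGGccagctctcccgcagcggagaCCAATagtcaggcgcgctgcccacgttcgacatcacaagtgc
Top2a, chr11.0:99024190-99024339, minus strand: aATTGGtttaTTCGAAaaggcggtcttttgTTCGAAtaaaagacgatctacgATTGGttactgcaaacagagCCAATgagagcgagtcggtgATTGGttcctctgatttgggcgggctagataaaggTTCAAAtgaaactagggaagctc
Rrm2, chr12.0:24708104-24708253, plus strand: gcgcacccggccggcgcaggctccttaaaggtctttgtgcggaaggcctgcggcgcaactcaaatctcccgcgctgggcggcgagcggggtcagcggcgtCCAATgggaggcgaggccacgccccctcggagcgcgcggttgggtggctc

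The 3 promoters differ in what they hold. Top2a has 4 CCAAT boxes and 3 matches to the cell cycle homology region, the nearest of which begins 23 bases before the start. Bub1 has 2 CCAAT boxes, 68 and 42 bases before the start, and Rrm2 has 1, at 50 bases. No E2F site lay in the stretches shown. In the 300-base promoter table (250 bases before and 50 after each start, the most upstream start of a gene), 36 of the 46 members had an entry. A CCAAT box on either strand was in 27 of these (75%), against 38.0% of 27025 genes in the table and 38.5% of the 12244 members of the whole comparison found there. The cell cycle homology region was in 17 (47.2%), against 19.5% of all, and an E2F site in 7 (19.4%), against 0.840% of all. Matches were counted wherever they lay, overlapping or not, and they describe letters in a window and no binding.

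Genes of mitosis and of replication were both among those that stood lower. Birc5, survivin, a subunit of the chromosomal passenger complex, had a signal of 5.72 at 3 weeks and 1.2 at 6 weeks (log2 ratio -2.26), and its 3 probes lay between -2.51 and -2.26. Mki67, which encodes the proliferation antigen Ki-67, went from 3.13 to 0.782, a log2 ratio of -2.0, and another probe gave -2.01. Ccna2, cyclin A2, stood at 1.1 and 0.283, and Nusap1, a protein of the mitotic spindle, at 0.326 and 0.0870. Cdc6, a licensing factor of replication origins, was well above background at 3 weeks only, and its signal of 0.0713 there was at least 5.83-fold that at 6 weeks. Such a bound sets the measured signal against the higher of the gene's own signal and the lowest signal well above background on the other array. The exception was Ccnd1, cyclin D1, which drives entry into the cycle and also responds to feeding in hepatocytes: its signal was 4.35 at 3 weeks and 12.9 at 6 weeks (log2 ratio 1.57). In the mice labelled KO, Ccnd1 stood at 4.98 and 2.36, so its change there ran the other way. Over the list as a whole, 32 of 43 measured members were at least 2-fold lower on the arrays labelled KO (4.48% of 18881 genes were), and the median was -2.32.

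**Figure D2:**
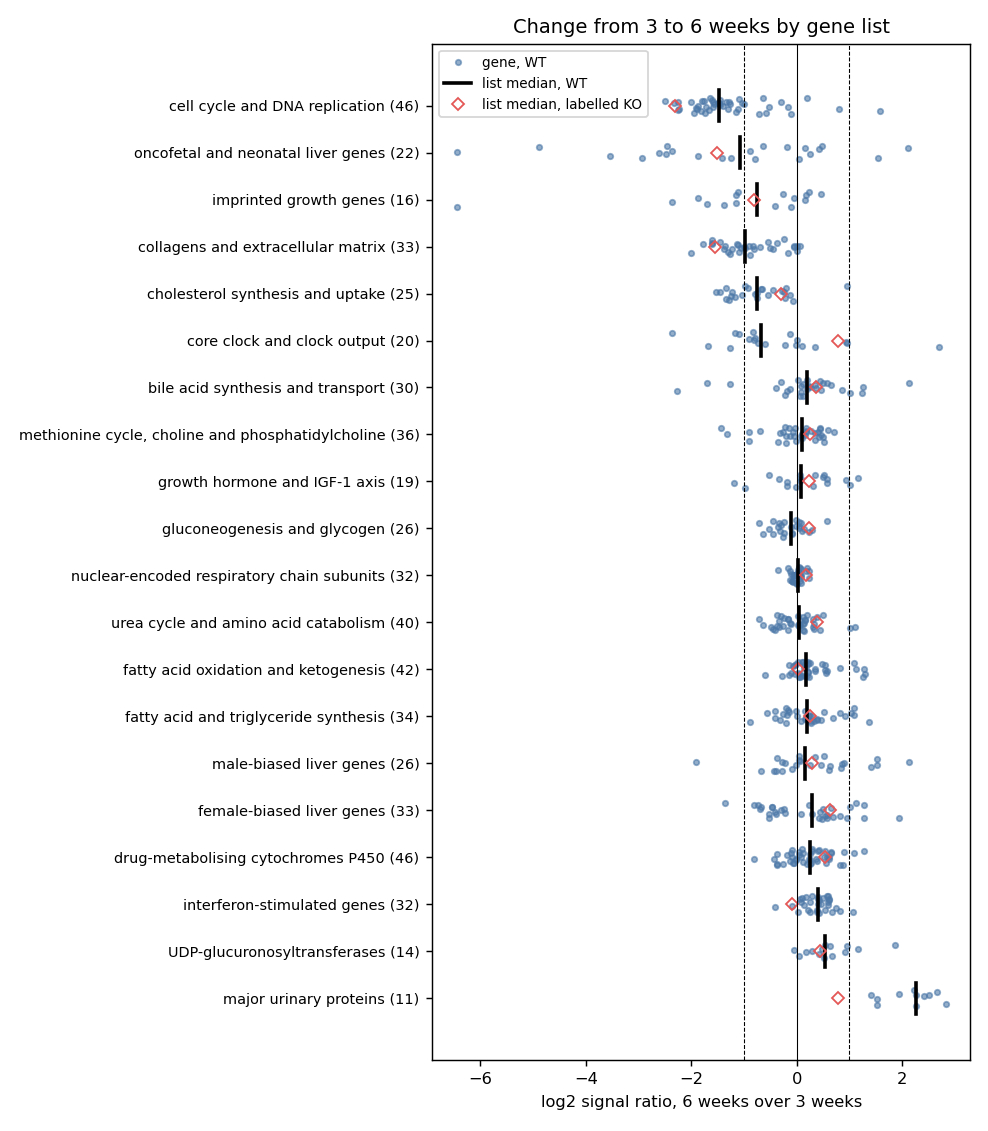
Log2 signal ratio of 6 weeks over 3 weeks in WT liver for each gene (points) of 20 gene lists, with the list's WT median (bar) and its median on the arrays labelled KO (open diamond); dashed lines mark 2-fold and the number of genes is in brackets. Cell cycle, oncofetal and matrix genes lie mostly left of zero on both medians, and the major urinary proteins lie right of the 2-fold line in WT.

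Fetal and neonatal liver genes stood lower as a group. Of 22 members, 11 were at least 2-fold lower and 2 at least 2-fold higher, with a median of -1.07. H19, an imprinted long noncoding RNA of fetal tissues, had the lowest ratio of the genes ranked: its signal was 86.1 at 3 weeks and 0.985 at 6 weeks, a log2 ratio of -6.45, while a dimmer probe gave -1.69. Its brightest probe lies at mm9 chr7:149761492-149761551. The arrays labelled KO had H19 at 94.6 and 5.17, so that the 6-week arrays were low in both genotypes. Afp, alpha-fetoprotein, went from 0.807 to 0.147 (log2 ratio -2.45), Gpc3, a heparan sulfate proteoglycan of the fetal liver surface, from 0.929 to 0.0803 (log2 ratio -3.53), and Spink1, a secreted protease inhibitor, from 0.872 to 0.114 (log2 ratio -2.93). Tff3, a trefoil peptide, had a signal of 2.60 and then 0.0872, a log2 ratio of -4.89. Bex4, Bex1 and Igf2, the fetal insulin-like growth factor, had log2 ratios of -2.60, -2.48 and -2.37. The genes of the list that were at least 2-fold higher were Ly6d, a surface protein, with signals of 0.315 and 1.36, and Tubb2b, a tubulin, with 0.0348 and 0.102. Neither was 2-fold higher on the arrays labelled KO, where their log2 ratios were 0.02 for Ly6d and -0.73 for Tubb2b.

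Imprinted growth genes are expressed from 1 parental copy and form a network whose members are turned down after birth in many organs. Of 16 members, 8 were at least 2-fold lower and none at least 2-fold higher (median -0.76), with H19, Igf2 and Dlk1 shared with the fetal list. The 8 include Meg3, whose probes disagree. Mest had a signal of 0.985 at 3 weeks and 0.304 at 6 weeks, and its 3 probes gave log2 ratios between -1.70 and -1.42. Plagl1, a zinc finger factor of that network, went from 1.27 to 0.570, Grb10, an adaptor that restrains insulin signalling, from 0.0997 to 0.0449, and Dlk1, a Notch-like ligand, from 0.0578 to 0.0159. Cdkn1c, the growth-arrest protein p57, stood at 1.59 and 0.740 in WT and at 1.27 and 1.61 on the arrays labelled KO. For Meg3, a long noncoding RNA, no direction can be given, because its brightest probe gave -1.38 and its other probe 2.97.

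Red blood cell genes were far lower at 6 weeks. Of 17 erythroid members 11 were at least 2-fold lower and none was 2-fold higher, and 7 further markers measured at 3 weeks only were at least 2-fold lower by their bound. The adult alpha globin Hba-a1 had a signal of 94.8 at 3 weeks and 7.70 at 6 weeks (log2 ratio -3.62), and Hba-a2 went from 231 to 27.4 (log2 ratio -3.07). The beta globins Hbb-bt, Hbb-bs and Hbb-b2 had log2 ratios of -3.92, -3.96 and -3.87. The globin genes are near-identical copies of one another, and a probe for one may read another. Some genes of red cell precursors other than globins stood lower too: Slc4a1, the band 3 anion exchanger, went from 0.542 to 0.0230 (log2 ratio -4.56), and Tfrc, the transferrin receptor, from 1.65 to 0.471. Others were within 2-fold, with log2 ratios of -0.23 for Tal1, -0.21 for Klf1, -0.04 for Epor and 0.09 for Ermap and Car1. Ahsp, the chaperone of free alpha globin, was at least 40.2-fold lower, Rhd, a blood group antigen, at least 7.99-fold, and Gata1, the erythroid master regulator, at least 3.19-fold. On the arrays labelled KO, Hba-a1 stood at 83.2 and 6.83 and Slc4a1 at 0.358 and 0.0239. There 9 of the 17 were at least 2-fold lower and 1 at least 2-fold higher, Klf1 at a log2 ratio of 1.58. The median there was -1.07, against -1.75 in WT. The summed signal of the 17 markers was 463 and 49.5 in WT and 414 and 44.2 on the arrays labelled KO.

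Markers of neutrophils and their precursors were lower in part. Of 15 members 9 were at least 2-fold lower and 1 at least 2-fold higher (median -1.90). Mpo, myeloperoxidase of the primary granules, stood at 0.273 at 3 weeks and 0.0176 at 6 weeks (log2 ratio -3.96), and Ltf, lactoferrin of the secondary granules, at 0.206 and 0.0215 (log2 ratio -3.26). S100a8 and S100a9, the subunits of calprotectin, went from 1.07 to 0.150 and from 3.45 to 0.544. Ngp, a granule protein, was at least 8.12-fold lower. Csf3r, the receptor of granulocyte colony-stimulating factor, carried most of the list's summed signal and stood at 60.6 and 63.5, so that the sum of 78.1 and 74.4 hardly differed. In the mice labelled KO 6 of 15 were at least 2-fold lower, and the median was -0.47. Outside these lists, Zdhhc22, a palmitoyltransferase, stood at 1.32 and 0.152 on its brightest probe (log2 ratio -3.12), while its other probe gave -0.31. Akr1c18, a hydroxysteroid dehydrogenase that inactivates progesterone, stood at 2.32 and 0.0960. For Akr1c18 the arrays labelled KO had signals of 3.78 and 0.172, a log2 ratio of -4.46.

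**Figure D3:**
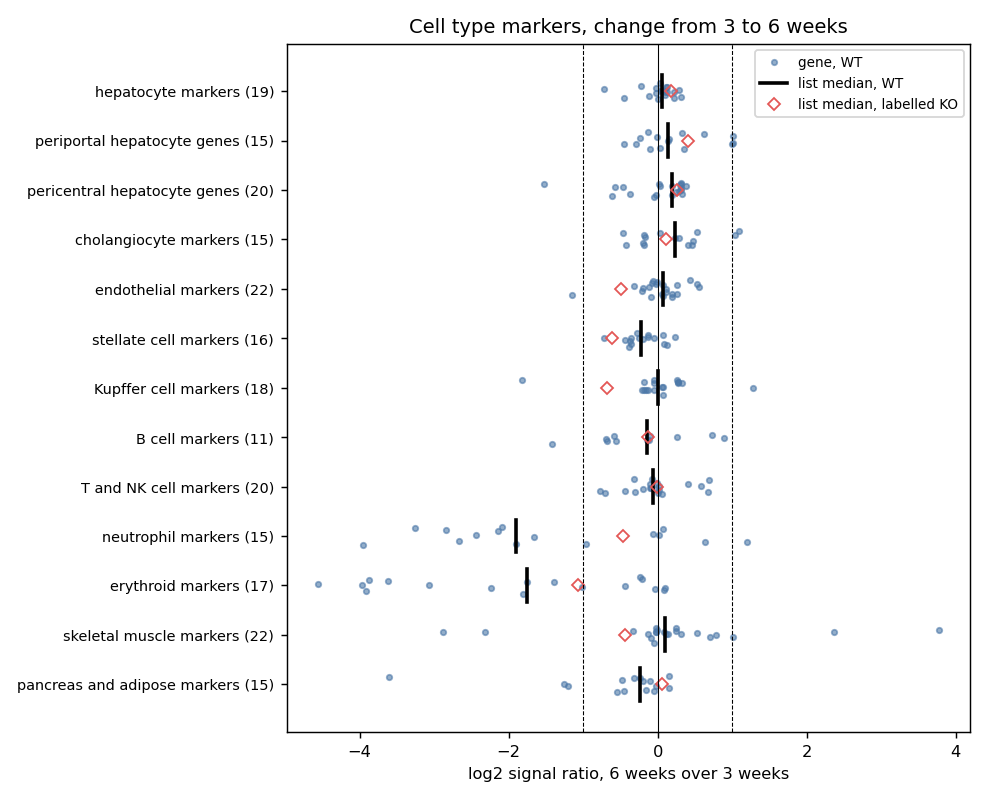
Log2 signal ratio of 6 weeks over 3 weeks in WT liver for each marker gene (points) of 13 cell types or tissues, with the WT median (bar) and the median on the arrays labelled KO (open diamond); dashed lines mark 2-fold. Mpo of the neutrophil list and Slc4a1 of the erythroid list lie at -3.96 and -4.56, while the hepatocyte markers lie between -0.72 and 0.31.

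Structural genes of connective tissue stood lower. Of 33 members of the matrix list 15 were at least 2-fold lower and none at least 2-fold higher (median -0.97). Col3a1 and Col1a1, the fibrillar collagen chains, had signals of 11.2 and 3.43 at 3 weeks and 3.27 and 1.13 at 6 weeks, log2 ratios of -1.78 and -1.60. Eln, elastin, went from 0.180 to 0.0448 (log2 ratio -2.0), Mmp2, a gelatinase, from 0.440 to 0.145, and Postn, periostin, from 1.32 to 0.505. Fstl1, a secreted glycoprotein, stood at 2.32 and 0.851. Col6a2 is less certain, because its 2 probes gave -1.36 and -0.35. On the arrays labelled KO 23 of 32 were at least 2-fold lower (median -1.54). Markers of hepatic stellate cells, which make matrix in the liver, did not pass 2-fold in any of their 16 members (median -0.22), the lowest being Reln, reelin, at -0.72.

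Genes of cholesterol synthesis and uptake stood lower in WT liver. Of 25 members 24 were below zero, 9 were at least 2-fold lower and none was 2-fold higher (median -0.76). Mvk and Mvd, which act on mevalonate, had signals of 7.75 and 2.35 at 3 weeks and of 3.20 and 0.808 at 6 weeks (log2 ratios -1.28 and -1.54), and Idi1, the isomerase after them, went from 22.2 to 9.38 (log2 ratio -1.25). Among the enzymes after squalene, Sqle, the epoxidase, stood at 9.14 and 3.62, Lss, the cyclase, at 2.51 and 1.11, Cyp51 at 1.2 and 0.515, and Msmo1, the sterol methyl oxidase, at 26.9 and 9.77 (log2 ratio -1.46). Nsdhl, a sterol dehydrogenase of the same stretch, was the remaining gene past 2-fold, at -1.04. Acat2, the thiolase at the head of the pathway, was the single gene above zero, at 10.05 and 19.4 (log2 ratio 0.95). Srebf2, the transcription factor that drives the pathway, stood at 0.405 and 0.241. On the arrays labelled KO no member passed 2-fold and the median was -0.30, with Msmo1 at 28.1 and 29.3 and Mvd at 1.61 and 1.23. Others of the genes 2-fold lower in WT came closer to it there, with log2 ratios of -0.90 for Sqle, -0.87 for Cyp51, -0.83 for Idi1 and Nsdhl and -0.78 for Lss. The difference between the genotypes was not tested.

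The 3 genes of largest change in this list that had a promoter entry are shown for the CCAAT boxes (capitals, either strand) that lie beside sterol elements in many genes of the pathway. They are again the 150 bases before the start, from RefSeq build GRCm38.p6, and the core CACCCCAC of the sterol element would also be in capitals.
Mvd, chr8.0:122443423-122443572, minus strand: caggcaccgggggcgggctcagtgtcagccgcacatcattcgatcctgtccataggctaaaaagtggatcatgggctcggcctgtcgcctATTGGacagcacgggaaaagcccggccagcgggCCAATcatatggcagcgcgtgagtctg
Msmo1, chr8.0:64733579-64733728, minus strand: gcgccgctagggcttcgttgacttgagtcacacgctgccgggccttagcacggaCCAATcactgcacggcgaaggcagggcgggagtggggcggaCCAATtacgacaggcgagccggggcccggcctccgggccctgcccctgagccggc
Mvk, chr5.0:114444119-114444268, plus strand: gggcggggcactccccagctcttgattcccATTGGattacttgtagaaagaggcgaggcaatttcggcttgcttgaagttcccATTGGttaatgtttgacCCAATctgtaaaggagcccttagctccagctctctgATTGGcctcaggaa

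All 3 hold CCAAT boxes in both orientations or in repeats, 2 in Mvd, 2 in Msmo1 and 4 in Mvk, and none holds the core in these 150 bases. Of the 17 members of the list with a promoter entry, 15 (88.2%) had a CCAAT box in the 300-base window, against 38.0% of all genes in the table, and 2 (11.8%) had the core, against 2.78%. All 7 genes at least 2-fold lower that had an entry held a CCAAT box. The box was common in other lists too, in 76.9% of erythroid and 68.8% of clock promoters. It was in 47.6% of the matrix list, 35.3% of the growth hormone list and 22.2% of the major urinary proteins. The 6-letter E-box CACGTG was in 3 of the 17 (17.6%), against 7.24% of all.

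**Figure D4:**
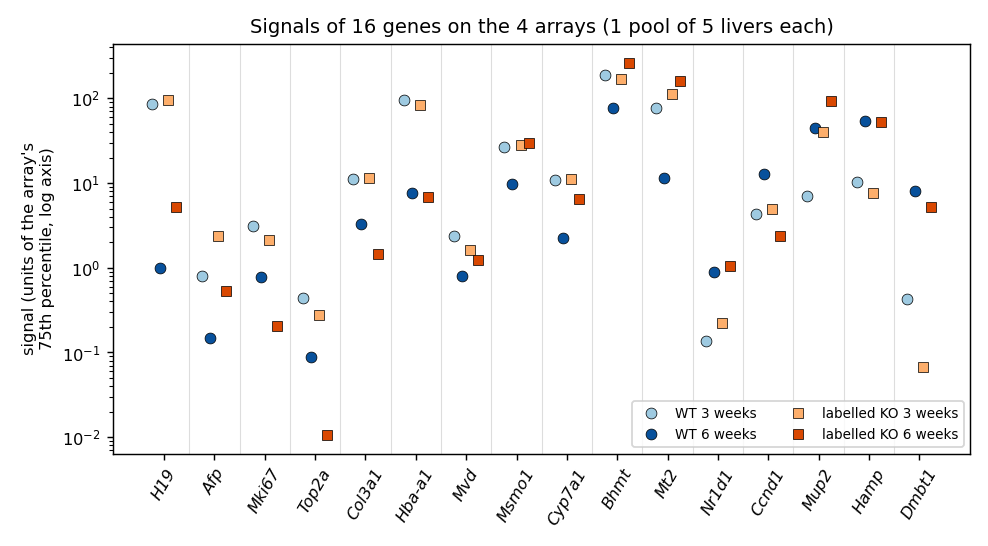
Signal (log axis, as a multiple of the 75th percentile of its array) of 16 genes on the 4 arrays, 1 pool of 5 livers each: circles WT, squares labelled KO, light 3 weeks, dark 6 weeks. H19, Hba-a1, Nr1d1 and Hamp separate by age in both genotypes, while Mvd, Msmo1, Bhmt and Mt2 are at least 2-fold lower at 6 weeks in WT and within 2-fold on the arrays labelled KO; the lowest Top2a point was not well above background.

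In the bile acid list 3 enzymes of synthesis were at least 2-fold lower, and 2 export pumps, the repressor Nr0b2 and 1 uptake carrier were at least 2-fold higher. Cyp7a1, the rate-limiting enzyme of bile acid synthesis from cholesterol, had a signal of 10.7 at 3 weeks and 2.24 at 6 weeks (log2 ratio -2.26). Cyp8b1, the sterol 12-hydroxylase that makes cholic acid, went from 4.30 to 1.32 (log2 ratio -1.71), and Cyp39a1, an oxysterol hydroxylase, from 16.6 to 6.93 (log2 ratio -1.26). Nr0b2, the repressor SHP that bile acids induce through their nuclear receptor, stood at 0.387 and 0.919 (log2 ratio 1.25), and Abcb11, the bile salt export pump, at 32.0 and 64.5 (log2 ratio 1.01). Abcc3, an export pump of the blood-facing membrane, stood at 9.04 and 21.6. Several other enzymes of synthesis were above zero and within 2-fold on the log2 scale, with Cyp7b1 at 0.86, Hsd3b7 at 0.58, Baat at 0.35, Cyp27a1 at 0.19 and Slc27a5 at 0.12. Others were below zero, with Akr1d1 at -0.30, Acox2 at -0.22, Cyp2c70 at -0.18 and Akr1c6 at -0.13. In the whole list 22 members were above zero and 8 below. Of 30 members 4 were past 2-fold upward and 3 downward, with a median of 0.19. On the arrays labelled KO, Cyp7a1 stood at 11 and 6.55, Cyp8b1 at 3.29 and 2.43 and Abcb11 at 30.7 and 34.0, none of them past 2-fold, while Abcc3 was (8.09 and 23.8). The remaining gene at least 2-fold higher in WT was Slco1a1, an organic anion uptake carrier of adult males, at 0.0567 and 0.248 (log2 ratio 2.13). The arrays labelled KO had 0.599 and 0.301 for Slco1a1, above both WT arrays.

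Major urinary proteins, secreted pheromone carriers that the adult liver makes in large amounts under growth hormone and androgens, were higher without exception. All 11 members were at least 2-fold higher, with a median log2 ratio of 2.26. Mup5 had a signal of 2.55 at 3 weeks and 18.1 at 6 weeks (log2 ratio 2.83), Mup2 of 7.07 and 44.8 (log2 ratio 2.66), Mup17 of 14.1 and 80.1 (log2 ratio 2.51) and Mup18 of 21.2 and 113 (log2 ratio 2.41). Mup21 had the smallest ratio, 1.42, from 3.54 to 9.44. The genes are near-identical copies, so the 11 probes are not 11 independent readings. At 3 weeks the array labelled KO was already higher, with Mup2 at 39.8 and Mup18 at 100.1, and 3 of 11 genes were at least 2-fold higher there at 6 weeks (median 0.78; 3.83% of 18881 genes were).

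Other genes known to differ between the sexes in adult liver moved less uniformly. Of 26 male-biased members 4 passed 2-fold upward and 1 downward (median 0.16). Those higher were Slco1a1 and the major urinary protein genes Mup20, Mup3 and Mup21, and the one lower was Susd4, a complement regulator, at 0.415 and 0.110. Of 33 female-biased members 5 passed it upward and 1 downward (median 0.30). Hamp2, a hepcidin gene, went from 33 to 126 (log2 ratio 1.94), Cyp2b13, a steroid hydroxylase, from 6.07 to 14.8, Acot3, a peroxisomal thioesterase, from 4.77 to 11.6, and Slc22a26, an organic anion carrier, from 1.76 to 3.84. Sult3a1, a sulfotransferase of adult female liver, was measured at 6 weeks only, where its signal of 0.320 was at least 21.2-fold that at 3 weeks. Sult2a1, a sulfotransferase of bile acids and steroids, was lower at 114 and 44.6 (log2 ratio -1.36). Xist, expressed from the inactive X chromosome, stood at 1.27 and 1.47. The Y-linked Ddx3y, Kdm5d and Eif2s3y were not well above background on either WT array, and Uty was so at 3 weeks only, with a signal of 0.222, at least 18.6-fold that at 6 weeks.

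Along the growth hormone axis the receptor and its hormone product stayed level. Ghr, the receptor, had a signal of 17.9 at 3 weeks and 15.8 at 6 weeks, and Igf1, the circulating growth factor it induces, 31.7 and 31.5, a log2 ratio of -0.01 on the brightest of 5 probes, which lay between -0.20 and 0.40. Signal transducers changed by less than 2-fold: Jak2 stood at 0.31 on the log2 scale, Stat5b at 0.58 and Stat5a at -0.18. Of the feedback inhibitors Socs2 was at least 2-fold higher and the others were not, with Socs2 at 0.752 and 1.68 (log2 ratio 1.16, 3 probes between 1.06 and 1.16), Cish at 2.63 and 5.05 (log2 ratio 0.94) and Socs3 at 1.35 and 1.92 (log2 ratio 0.51). Of the transcription factors that shape sex-biased expression, Bcl6, a repressor of male liver, went from 3.37 to 1.48 (log2 ratio -1.19), and Cux2, a factor of female liver, from 0.590 to 1.2 (log2 ratio 1.02, with another probe at 0.72). The arrays labelled KO gave -1.49 for Bcl6 and 2.54 for Cux2. Among the binding proteins of insulin-like growth factors, Igfbp3 had a log2 ratio of -0.98, Igfbp1 of -0.52, Igfbp4 of -0.34 and Igfbp2 of 0.53, and Igfals, which joins Igfbp3 in the circulating complex, of 0.08. Prlr, the prolactin receptor, stood at 0.58, Insr, the insulin receptor, at 0.35, Egfr at 0.06 and Hnf4a, the hepatocyte nuclear factor, at 0.06. Of the 19 genes 2 were therefore at least 2-fold higher and 1 lower. The STAT5 site TTCNNNGAA was in 4 of 17 promoters of these genes (23.5%), against 8.42% of all genes.

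Most drug-metabolising enzymes lay within 2-fold, as did most genes on the array, and the family medians differed in sign. Over all 19341 genes the shares past that limit were 2.34% upward and 3.73% downward. The counts of these small families were not tested against those shares. Of 46 cytochrome P450 members 31 were above zero, 2 were past 2-fold upward and none downward (median 0.25). The pair past 2-fold were Cyp2b13 and Cyp2c67, an epoxygenase, which stood at 55.0 and 116 (log2 ratio 1.08, another probe 0.59). Of 14 UDP-glucuronosyltransferases, which attach glucuronic acid to drugs and bilirubin, 13 were above zero and 2 at least 2-fold higher (median 0.53): Ugt3a1 went from 2.15 to 7.87 (log2 ratio 1.87) and Ugt2a3 from 7.13 to 15.9 (log2 ratio 1.16). Both were at least 2-fold higher on the arrays labelled KO, at 1.75 and 1.70. None of 21 glutathione S-transferases passed 2-fold (median 0.23). Of 14 sulfotransferases 3 were above zero and 11 below (median -0.26), and 1 was at least 2-fold higher, Sult2a7 at 0.0565 and 0.136 (log2 ratio 1.27). The pair at least 2-fold lower were Sult2a1, described above, and Sult1e1, the estrogen sulfotransferase, at 0.288 and 0.0210 (log2 ratio -3.78). On the arrays labelled KO, Sult1e1 stood at 0.742 and 15.3, the opposite direction. Among 19 targets of the xenobiotic receptors CAR and PXR only Abcc3 was past 2-fold, and the median was 0.23. Of 21 targets of the oxidant sensor NRF2, Me1 was at least 2-fold higher and Cbr3, a carbonyl reductase, at least 2-fold lower (1.97 and 0.680), with a median of 0.21.

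A few genes of lipid synthesis and oxidation were higher, and none of either list was 2-fold lower. Of 34 genes of fatty acid and triglyceride synthesis 4 were past 2-fold upward and none downward (median 0.21). Pnpla3, a lipid droplet hydrolase, had a signal of 0.804 at 3 weeks and 2.09 at 6 weeks (log2 ratio 1.38), Elovl5, a fatty acid elongase, 28.7 and 61.4 (log2 ratio 1.1), Me1, malic enzyme, 15.7 and 32.2 (log2 ratio 1.03), and Mogat1, an acyltransferase of diacylglycerol synthesis, 0.0638 and 0.136. Scd1, the stearoyl desaturase, stood just short at 74.9 and 142 (log2 ratio 0.92). Of 42 genes of fatty acid oxidation and ketogenesis 5 were past 2-fold upward, none downward, and 33 were above zero (median 0.17). Fgf21, a fasting hormone, stood at 0.744 and 1.82, Acot1, a cytosolic thioesterase, at 7.97 and 19.1, Ehhadh, a peroxisomal oxidation enzyme, at 15.2 and 33.4, and Vnn1, a pantetheinase, at 2.04 and 4.34. These are known targets of the fatty acid receptor PPAR alpha, as is Acot3, but they were picked by their ratio. Other genes of the list were nearly level, among them Cpt1a at 0.03, Hadha at 0.02, Acadl at -0.10 and Slc25a20 at -0.15, and Ucp2 was the lowest at -0.59. Targets of the receptor were not tested as a set. In the mice labelled KO, Acot1, Ehhadh, Vnn1 and Fgf21 had log2 ratios of -0.03, -0.03, -0.31 and -0.48, and only Acot3 was past 2-fold, at 2.66. None of 26 genes of gluconeogenesis and glycogen passed 2-fold (median -0.10), the lowest being Tat at -0.72. None of 32 respiratory chain subunits encoded in the nucleus passed it either, and these lay between -0.35 (Cycs, cytochrome c) and 0.24 (Cox6c), with a median of 0.02.

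Enzymes of serine and asparagine synthesis were lower. Phgdh, the first enzyme of serine synthesis, had a signal of 0.816 at 3 weeks and 0.0820 at 6 weeks (log2 ratio -3.31), and its 3 probes lay between -3.31 and -2.97. Psat1, the next enzyme, went from 1.03 to 0.222 (log2 ratio -2.21), and Asns, asparagine synthetase, from 1.63 to 0.282 (log2 ratio -2.53). The arrays labelled KO gave -4.17, -2.82 and -2.44 for Phgdh, Psat1 and Asns. All 3 belong to the list of the unfolded protein and integrated stress response, in which 2 other genes of 28 were at least 2-fold higher, Chac1, a glutathione-degrading enzyme (log2 ratio 1.33), and Fgf21 (1.29). The list's median was 0.05. Of 40 genes of the urea cycle and amino acid catabolism, Amdhd1 and Hal, which act in histidine breakdown, were at least 2-fold higher, with signals of 5.46 and 11.8 and of 17.8 and 35.8. None was at least 2-fold lower (median 0.05).

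In the methionine cycle and choline metabolism 2 of 36 genes were at least 2-fold lower and none at least 2-fold higher (median 0.09). Over all 19341 genes the shares were 3.73% lower and 2.34% higher, and the counts of this list were not tested against them. Bhmt, which remakes methionine from homocysteine with betaine from choline, had a signal of 190 at 3 weeks and 76.6 at 6 weeks (log2 ratio -1.31), with 4 probes between -2.54 and -1.27. Nnmt, which methylates nicotinamide at the cost of the methyl donor S-adenosylmethionine, went from 6.75 to 2.49 (log2 ratio -1.44, another probe -0.82). Bhmt was not lower on the arrays labelled KO, where it stood at 170 and 264. Mat1a, the liver's S-adenosylmethionine synthetase, had a log2 ratio of -0.70 and Mat2a, its nonhepatic counterpart, of 0.53. Cbs, which opens the route from homocysteine to cysteine, stood at 0.71, and Cth, the next enzyme, at -0.35. The methyl-consuming Gnmt and Pemt, glycine and phosphatidylethanolamine methyltransferases, stood at -0.05 and 0.09, and Ahcy, which clears their product, at -0.04. Of the betaine pathway, Chdh was at 0.41, Aldh7a1 at 0.17, Dmgdh at 0.10, Sardh at -0.07 and Bhmt2 at -0.31. In the folate branch Mtr and Mtrr, methionine synthase and its reductase, had log2 ratios of -0.02 and -0.91, Mthfd1 of -0.15, Shmt1 of 0.26 and Shmt2 of -0.21. Of the phospholipid synthesis genes, Chka, Chkb, Pcyt1a, Chpt1 and Cept1 on the choline arm stood at 0.35, 0.60, -0.20, 0.47 and 0.43. Etnk1, Etnk2 and Pcyt2 on the ethanolamine arm stood at 0.44, -0.27 and 0.09. Among genes of phospholipid breakdown and choline release, Pnpla7 was at 0.35, Pnpla6 at 0.19, Pnpla8 at 0.16, Gpcpd1 at 0.50 and Gde1 at -0.90, and the choline carriers Slc44a1 and Slc44a2 were at 0.44 and -0.13. Mat2b, a regulatory subunit of the synthetase, was at 0.18.

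Metal-handling genes gave some of the largest ratios among bright genes. The metallothioneins Mt1 and Mt2, which bind zinc and are induced by glucocorticoids and metals, had signals of 111 and 76.5 at 3 weeks and 29.9 and 11.6 at 6 weeks. Their log2 ratios were -1.89 and -2.73, and another probe of Mt1 gave -3.38. In the mice labelled KO, Mt1 stood at 150 and 195 and Mt2 at 112 and 162, so neither was lower with age there. Hamp, hepcidin, the hormone that blocks iron export, went from 10.2 to 53.8 (log2 ratio 2.40), and Hamp2 as given above. Both were higher on the arrays labelled KO as well, at 2.77 and 3.71. Of the 19 genes of this list 2 were past 2-fold upward and 3 downward (median 0.20), and Tfrc was the remaining one of these.

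Among 25 acute phase proteins 3 passed 2-fold upward and 1 downward (median -0.11). The orosomucoids Orm1, Orm2 and Orm3, serum glycoproteins encoded by adjacent copies, had log2 ratios of 1.80, 1.64 and 1.46, with Orm1 at 5.51 and 19.2. Lcn2, lipocalin 2, which is also in the neutrophil list, went from 4.80 to 1.09 (log2 ratio -2.14). Saa3, a serum amyloid A, stood at -0.70 and Apcs, serum amyloid P, at -0.98. None of 37 complement and coagulation genes passed 2-fold (median 0.05). Of 32 interferon-stimulated genes 30 were above zero, but only Ifi27 was at least 2-fold higher, at 22.0 and 46.1 (log2 ratio 1.07), and the median was 0.41. The same list had a median of -0.10 on the arrays labelled KO. Of 17 heat shock genes only Hspb1, a small heat shock protein, passed 2-fold, with signals of 1.96 and 10.9 (log2 ratio 2.48), and the median was -0.01.

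Clock genes moved in both directions, and the labels give no time of collection. Nr1d1, the repressor REV-ERB alpha, had a signal of 0.138 at 3 weeks and 0.897 at 6 weeks (log2 ratio 2.70). Npas2, a partner of BMAL1, went from 0.235 to 0.0455 (log2 ratio -2.37) and Cry1, a repressor of the core loop, from 0.188 to 0.0587 (log2 ratio -1.68). Per2 stood at 0.552 and 0.260, Usp2 at 3.09 and 1.28 and Ciart at 0.174 and 0.0770. Dbp, an output factor, was at 7.77 and 15.1. Of 20 members 1 passed 2-fold upward and 5 downward, and the median was -0.67, against 0.78 on the arrays labelled KO. There Nr1d1 had a log2 ratio of 2.23, Dbp of 1.57 and Cry1 of -0.39, while Usp2 and Ciart stood at 1.11 and 1.75, opposite to WT. The E-box CACGTG was in 4 of 16 promoters of this list (25%), against 7.24% of all genes, and the D-box (TTATGTAA or TTATGCAA) in 2 (12.5%), against 1.74%.

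Markers of the other liver cells were mostly level. Of 22 endothelial markers 1 was at least 2-fold lower, Lyve1, a hyaluronan receptor, at 2.04 and 0.924, and the median was 0.07. Of 18 Kupffer cell markers Marco, a scavenger receptor, was lower at 13.2 and 3.73 (log2 ratio -1.82) and Cd74, the invariant chain of antigen presentation, higher at 1.54 and 3.75 (log2 ratio 1.28), with a median of 0.00. Marco was lower and Cd74 short of 2-fold on the arrays labelled KO, at -2.12 and 0.86. Of 15 cholangiocyte markers Krt23 and Tspan8 were at least 2-fold higher, at 1.04 and 1.09. None of 20 T and NK cell markers passed 2-fold, and of 11 B cell markers Pou2af1 was lower at -1.42. By their bound the B cell genes Ebf1 and Tnfrsf13c were at least 2.59-fold and 4.0-fold lower and Pax5 at least 21.1-fold higher, each measured on 1 WT array. Signals of Pax5 on the arrays labelled KO were 0.243 at 3 weeks and 0.0114 at 6 weeks, opposite to WT. Tnfrsf13c had 0.0188 and 0.0223 there, not lower at 6 weeks, and Ebf1 had 0.038 and 0.012, lower as in WT. Along the lobule, Hal, Pigr and Ctsc were at least 2-fold higher among 15 periportal genes (median 0.14), all close to 1 on the log2 scale on their brightest probes, with another probe of Pigr at 2.33. Rhbg, an ammonium carrier, was at least 2-fold lower among 20 pericentral genes, at 2.77 and 0.961, with a median of 0.19.

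Of 50 skeletal muscle markers 22 were members, 9 were measured on 1 array and 19 on neither. Acta1, skeletal actin, had a signal of 0.0237 at 3 weeks and 0.326 at 6 weeks, and Tnnc2, a fast troponin, 0.0360 and 0.185, while Cox8b and Tnnc1 were lower at 0.193 and 0.0262 and at 0.148 and 0.0298. Tnni2, another fast troponin, stood at 0.109 and 0.219. By their bound Mb, Myh1, Myh2, Myl1, Tcap and Tnnt3 were 2.05-fold to 3.40-fold higher at the least and Actn2 2.15-fold lower. The summed signal of the 22 was 7.20 and 8.82 in WT, against 71.3 and 52.8 on the arrays labelled KO, and its part in other differences between the genotypes was not tested. Of the pancreas and adipose markers Cidea, a lipid droplet protein of brown fat and of fatty liver, went from 0.351 to 0.0289 (log2 ratio -3.60). Plin1 and Fabp4, of fat cells, had log2 ratios of -1.25 and -1.20, Fabp4 going from 4.99 to 2.17. Prss1, a trypsinogen, was at least 2.40-fold lower.

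Some of the largest ratios lay outside the lists. Dmbt1, a secreted scavenger receptor protein of epithelia, led the brighter genes, with a signal of 0.422 at 3 weeks and 8.16 at 6 weeks (log2 ratio 4.27), and was 6.29 on the log2 scale on the arrays labelled KO. Serpina4-ps1, a serpin pseudogene, went from 0.533 to 9.21 (log2 ratio 4.11), but from 0.937 to 0.317 on the arrays labelled KO. Dntt, known as the template-independent polymerase of lymphocyte precursors, stood at 0.275 and 1.42, Plekhb1 at 1.32 and 6.68, and Slc22a30, an organic anion carrier, at 0.433 and 2.15. Among dimmer genes Tceal5 stood at 0.706 and 0.0248 and was lower on the arrays labelled KO too, at -2.93. In Olfr1419 (0.784 and 0.0188), Pisd-ps2 (0.286 and 0.0154) and Kirrel2 (0.316 and 0.0207) only the 3-week WT array stood above 0.1. In Fjx1 (0.0233 and 0.418) and Vmn2r121 (0.0229 and 0.326) only the 6-week WT array did. Tiam2 stood at 0.0214 and 0.591, Reg3g at 0.0282 and 0.482 and Smtnl1 at 0.0269 and 0.598.

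**Figure D5:**
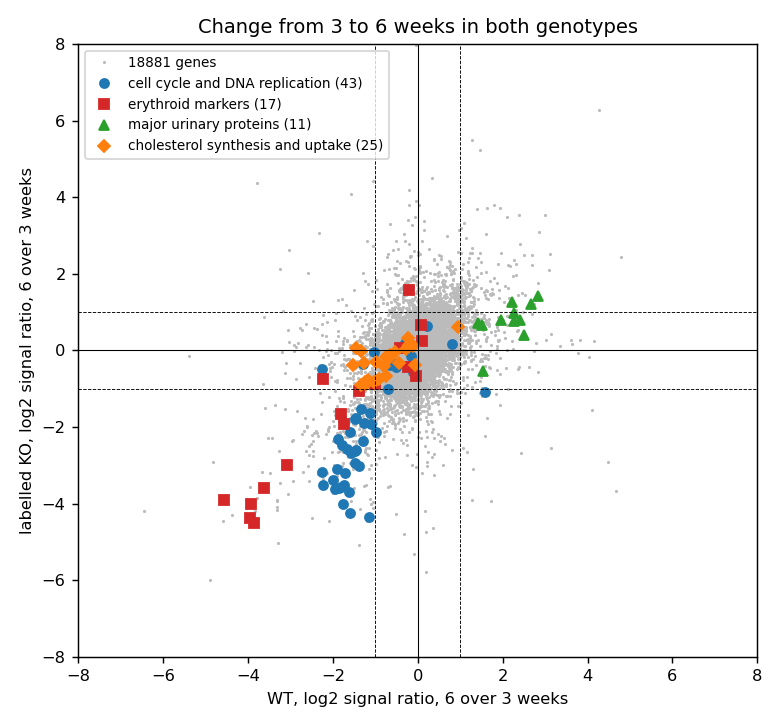
Log2 signal ratio of 6 weeks over 3 weeks on the arrays labelled KO (vertical) against WT (horizontal) for the 18881 genes well above background on all of these arrays; dashed lines mark 2-fold. Most cell cycle genes and the hemoglobins, apart from Hbb-y, lie in the lower left, major urinary proteins at right, mostly below the 2-fold line of the KO axis, and cholesterol genes, apart from Acat2, left of zero on the WT axis and within 2-fold on the other.

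The arrays labelled KO gave a second look at age in RNA from other animals. Of 419 genes at least 2-fold higher in WT and well above background there, 171 were at least 2-fold higher too, 333 had the same sign and 21 were at least 2-fold lower. Over all 18881 such genes the shares past 2-fold were 3.83% higher and 4.48% lower. Of 608 genes at least 2-fold lower in WT, 295 were at least 2-fold lower there, 484 had the same sign and 23 were at least 2-fold higher. Among the brighter genes the counts were 78 of 157 and 92 of 163. Across the 18881 genes the WT and KO ratios had a Pearson correlation of 0.460 and a Spearman correlation of 0.432, as a description, since genes are not independent and the 4 arrays share a slide.

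A fit of age over both genotypes with limma, which has 1 residual degree of freedom, called none of 19318 genes at an adjusted p under 0.05 (0%), although 2813 had an unadjusted p under 0.05. The smallest adjusted p was 0.122, shared by Akr1c18 (log2 change -4.53, SE 0.152), the globins, Mpo, Slc4a1, Tff3 and Asns among others. With a trend in limma's variance prior, 7 genes (0.0362%) were called, all lower at 6 weeks, among them Hbb-bt, Akr1c18, Hba-a1, Hbb-bs, Hbb-b2 and Hba-a2. The adjusted p of the 7 from limma lay between 0.0243 and 0.0392. Of the 7 genes 5 are globins.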

How the data were processed

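Liver RNA pooled in equal amounts from 5 mice per group was hybridised to 4 one-colour Agilent arrays, per the labels. The deposited intensity is the background-subtracted processed signal. The submitters' processing notes name Agilent Feature Extraction 11.5.1.1 as the software that made it. Deposited flags, other values of 0 or 1, mark outlier and well-above-background spots, per the file headers. The value table of the authors equals this intensity over each array's 75th percentile.

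Here log2 intensity minus the log2 of that percentile was averaged over the spots of a probe. The brightest member probe on average over the 4 arrays stood for a gene. Probes were named through a RefSeq gene table (27508 by accession, 3544 by symbol, 404 by synonym; 7973 kept the file's name). Probe positions are mm9. Genes were counted at 2-fold, and limma 3.58.1 (R 4.3.3) was fitted with age and genotype terms, with Benjamini-Hochberg adjustment over all genes. The fit and the counting were tested on simulated data. Python 3.11.15, numpy 2.4.6, pandas 2.3.3 and matplotlib 3.10.9 did the rest. Alternatives were other scalings, quantile normalization, normexp with an offset of 50, the authors' table, outlier spots kept, all probes averaged, other filters, and 1.5-fold and 3-fold.

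The members and the gene lists were chosen with earlier results of these data known. Named were the 12 highest and 12 lowest brighter genes, the 6 highest and 6 lowest of the rest, up to 8 genes of largest ratio per list, bounds past 2-fold, and all of the growth hormone, methionine and choline, and sex chromosome lists. Clones and gene models were left out, and a few genes that qualify are not reported here. Other genes, such as Ccnd1, Acat2, Tubb2b and Csf3r, were named after their values were seen. With 4 arrays in all, precision is limited by their number.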

Additional observations from a re-analysis of the deposited data

Results flagged for a closer look

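Among the listed and ranked genes there were 7 in which WT and the arrays labelled KO were both past 2-fold between the ages but in opposite directions, each genotype resting on 1 array per age, and the difference was not tested. Sult1e1 had a log2 ratio of -3.78 in WT and 4.37 on the arrays labelled KO, where its signal reached 15.3 at 6 weeks. Serpina4-ps1 had 4.11 and -1.56, and Ccnd1 1.57 and -1.08. The clock-linked Usp2 had -1.27 and 1.11 and Ciart -1.18 and 1.75, and the time of collection is not given. Smtnl1, which is known from muscle, had 4.48 and -2.92, and the muscle troponin Tnni2 had 1.01 in WT, at signals of 0.109 and 0.219, and -1.08 on the arrays labelled KO, at 16.4 and 7.76.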

How the results depend on the processing

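No paired analysis was possible because the labels give no replicate numbers and each group is 1 array. The counts of genes 2-fold higher and lower, 452 and 721, became 264 and 399 with normexp, 1362 and 2008 with no filter on dim probes, 137 and 118 with a mean WT signal at or above the 75th percentile, 1254 and 1625 at 1.5-fold and 156 and 305 at 3-fold. Under the other 7 alternatives each count stayed within 1.5 times. The last filter on signal moved the share of lower genes among those past 2-fold from 61.5% to 46.3%. The 466 genes past 2-fold the same way in both genotypes became 291 with normexp, 1109 with no filter and 126 with the signal filter. limma's count of 0 became 7 once the variance prior had a trend, and stayed 0 in the other 3 fits (smallest adjusted p 0.0724 to 0.23). Meg3 reversed, from -1.38 to 0.80, with the mean of its probes. Medians reversed for stellate cell markers (0.07 with the signal filter), skeletal muscle markers (-0.01 with no filter) and the sex chromosome list (-0.35 with no filter). Of 151 named genes past 2-fold, 130 to 151 kept that under each of 7 alternatives, fewest with normexp. Among those that fell short with normexp were Dlk1 (-0.77), Grb10 (-0.63), Plin1 (-0.45), Pou2af1 (-0.75) and Cyp2c67 (0.53). The cause was not tested in any of these. Dim genes limit the counts, since a ratio near background carries the larger error.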
